A study of Homo sapiens with 18 samples.

Results

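The 10 genes described here build fatty acids and desaturate them, together with SREBF1, the gene of the transcription factor that regulates the pathway. They were taken by name from a table of 60656 genes, of which 25113 had a count in any library. By role they are the regulator SREBF1, the cytosolic synthesis enzymes ACLY, ACACA and FASN, the elongases ELOVL1, ELOVL5 and ELOVL6, and the desaturases SCD, FADS1 and FADS2. Messenger RNA was counted by 3′-end sequencing in CAMA-1 and ZR-75-1, established cell lines from oestrogen receptor-positive breast cancer. Each line was cultured for 5 days with the solvent DMSO, with abemaciclib at 500 nM or with palbociclib at 500 nM, which gave 6 groups of 3 libraries and 18 libraries in all. Both drugs are inhibitors of CDK4 and CDK6, the cyclin D-dependent kinases that act on the retinoblastoma protein early in the cell cycle. No group carried a deletion or a transgene, and the cells had no other treatment in the labels. Replicates are marked in the labels only by a number, so the p-values measure the spread between these libraries. In bulk RNA of a culture, fewer cells of a kind and less RNA per cell cannot be told apart.

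Fatty acid synthesis starts from citrate that leaves the mitochondrion. ACLY splits it to acetyl-CoA, ACACA carboxylates acetyl-CoA to malonyl-CoA, and FASN joins these units into palmitate. Elongases of the ELOVL family add carbons to the chain, SCD places the first double bond in saturated chains, and FADS1 and FADS2 desaturate polyunsaturated chains. SREBF1 encodes a membrane-bound precursor that is cut to release a nuclear factor, and most of the enzymes named here are textbook targets of that factor. The pathway is used by dividing cells to make membrane lipids, and FASN is abundant in many breast cancer cells.

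Libraries held between 2308442 and 4146549 counts. Values per library are normalised counts in counts per 1000000 (CPM), relative to a total scaled by the trimmed mean of M values (TMM). The scaling was made within each line, so CPM values of different lines are not on a common scale. Fold differences between the lines come from a fit of all 18 libraries. All 8 luminal epithelial markers, among them ESR1, GATA3 and KRT19, had at least 120 counts in every library. Their summed level in CAMA-1 was 4867 to 5224 CPM with DMSO, 6534 to 6570 with abemaciclib and 6790 to 6867 with palbociclib. In ZR-75-1 it was 6153 to 6391, 7179 to 7350 and 5654 to 5856 CPM in the same order, so no groups of a line overlapped. KRT19 and GATA3 had the largest part in these sums, with at least 1551 and 1339 CPM in every library. Single markers differed in direction: in CAMA-1 each drug gave 4 of 8 called higher and 1 lower. In ZR-75-1 abemaciclib gave 5 higher and 1 lower, and palbociclib 1 higher and 3 lower. The shares of all tested genes called in these comparisons are given with the members below. Of 10 markers of leukocytes, endothelium, fibroblasts and adipocytes, ADIPOQ, FABP4 and CD3E had 0 counts throughout and COL1A1 had the most, with 26 to 108 counts a library. The summed count of these 10 markers was 46 to 78 a library with DMSO in CAMA-1, 46 to 66 with abemaciclib and 64 to 73 with palbociclib. In ZR-75-1 it was 61 to 91, 72 to 87 and 75 to 109 in the same order. Only COL1A1 and COL3A1, both fibroblast collagens, were abundant enough to be tested in CAMA-1. COL3A1 was called higher with abemaciclib (log2 2.24) and palbociclib (2.12) there, from 2 to 6 counts a library to 12 to 24 and 18 to 21, and had 0 counts in ZR-75-1. It was abundant enough to be tested only through the drug libraries, so these calls could only be rises. COL1A1 was called lower with abemaciclib in CAMA-1 (log2 -0.58). The part of these markers in the results was not tested. The proliferation markers MKI67, TOP2A and CCNA2 fell in all 4 comparisons with DMSO, with a median log2 fold change of -3.27 (abemaciclib) and -2.40 (palbociclib) in CAMA-1 and of -4.64 and -1.36 in ZR-75-1. The mean mitochondrial share of counts in CAMA-1 was 15.7% ± 0.87 for DMSO, 24.8% ± 1.37 for abemaciclib and 23.6% ± 1.15 for palbociclib (SD, n = 3 each). For both drugs p was 0.1 in a two-sided exact permutation test, its lower limit with n = 3 per group. Group means of that share ran from 19.0% to 20.2% in ZR-75-1.

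FASN rose and FADS1 fell with each drug in each line. ELOVL1 and FADS2 were called in no comparison with DMSO, and the other members in some only. A gene was called higher or lower at a Benjamini-Hochberg adjusted p under 0.05 over all genes tested in edgeR's quasi-likelihood test. With abemaciclib in CAMA-1, 3 of the 9 tested members were higher and 1 was lower, where 20.3% of all 11053 tested genes were called higher and 20.1% lower. With palbociclib in that line, 4 of 9 were higher and 1 was lower, against 18.4% and 18.7% of all tested genes. In ZR-75-1, abemaciclib gave 5 of 10 members higher and 2 lower, against 17.9% and 18.3% of 11017 tested genes. Palbociclib gave 3 of 10 higher and 2 lower there, against 14.5% and 13.4%. The median log2 fold change of the tested members was 0.10, 0.16, 0.23 and 0.01 in these 4 comparisons, and that of all tested genes lay between -0.01 and 0.01. With library totals alone as the scaling, the median of all genes in CAMA-1 shifted to -0.12 with abemaciclib and -0.10 with palbociclib, and the genes called higher made up 35.9% and 36.3% of all called ones in place of 50.3% and 49.5%. Both comparisons of a line use the same 3 DMSO libraries. ELOVL6 was too low to be tested within CAMA-1.

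Summed over the 10 genes, the level was 1097 to 1186 CPM in the DMSO libraries of CAMA-1, 1226 to 1247 with abemaciclib and 1484 to 1619 with palbociclib. In ZR-75-1 the DMSO libraries summed to 3413 to 3582 CPM, the abemaciclib libraries to 5236 to 5281 and the palbociclib libraries to 3464 to 3717. The 3 groups of CAMA-1 did not overlap, while in ZR-75-1 the abemaciclib libraries stood above both other groups. FASN and SCD together made up 48.7% to 61.0% of the members' counts in CAMA-1 and 79.1% to 85.2% in ZR-75-1, so these sums mainly follow those 2 genes. The kit reads the 3′ end of each transcript, so the values were not divided by gene length.

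**Figure D1:**
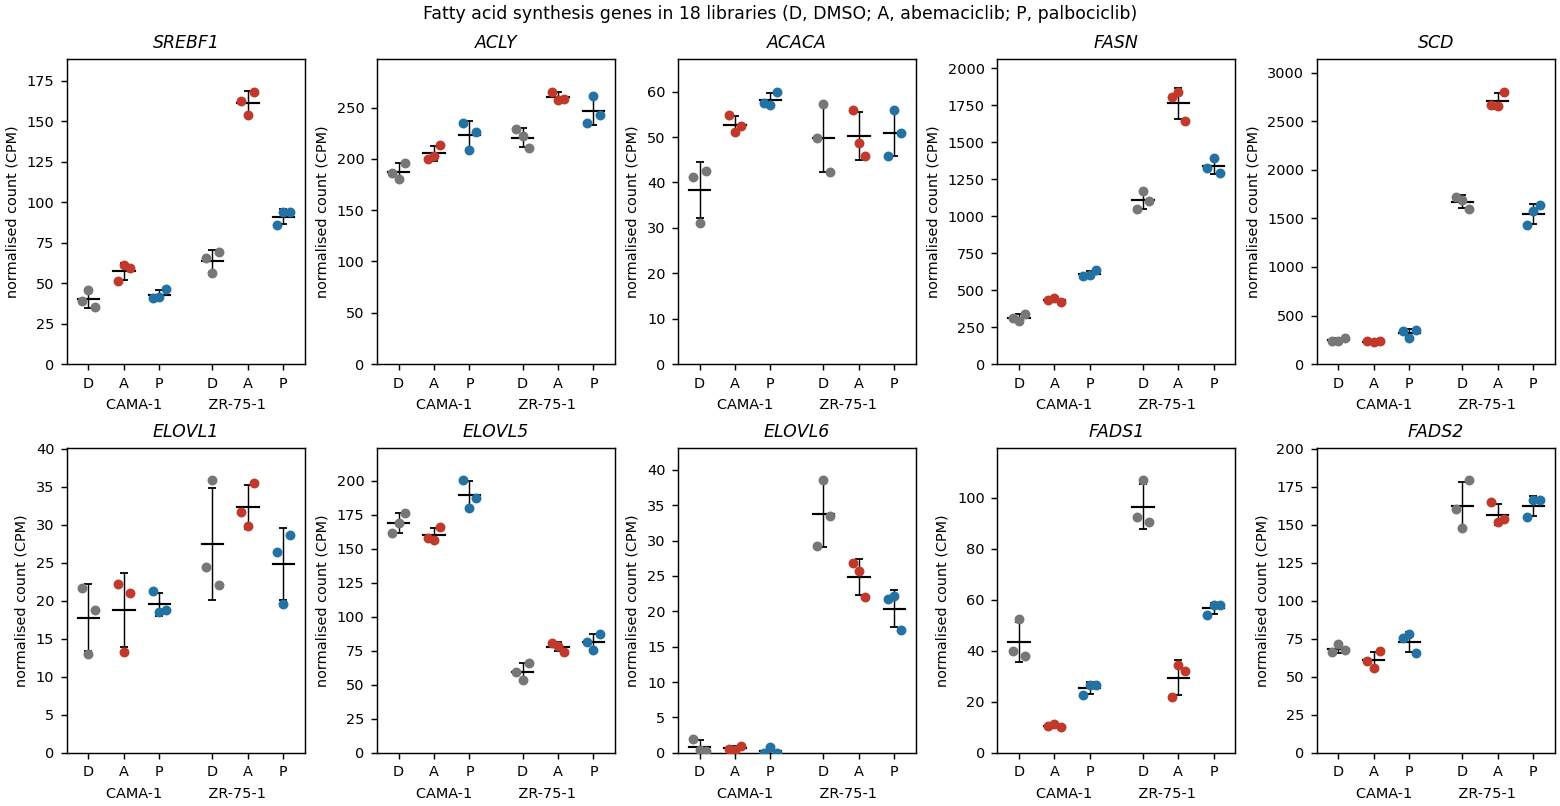
Normalised counts (CPM scaled within each line, vertical axes from 0) of the 10 genes in all 18 libraries. D is DMSO, A abemaciclib and P palbociclib, points are libraries, and bars with whiskers are the mean ± SD of 3 libraries. FADS1 is lower with either drug than with DMSO in both lines, and SCD with abemaciclib in ZR-75-1 lies at 2661 to 2802 CPM against 1596 to 1721 with DMSO.

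SREBF1 encodes sterol regulatory element-binding protein 1. The gene lies on the minus strand at chr17:17810399-17837002 (GRCh38, GENCODE release 44). The 250 bases before its RefSeq start site (GRCh38.p14, chr17:17836987-17837236, minus strand, 5′ to 3′) are shown here because the gene rose with both drugs in ZR-75-1. Capitals mark matches to GC boxes (GGGCGG on either strand).
SREBF1: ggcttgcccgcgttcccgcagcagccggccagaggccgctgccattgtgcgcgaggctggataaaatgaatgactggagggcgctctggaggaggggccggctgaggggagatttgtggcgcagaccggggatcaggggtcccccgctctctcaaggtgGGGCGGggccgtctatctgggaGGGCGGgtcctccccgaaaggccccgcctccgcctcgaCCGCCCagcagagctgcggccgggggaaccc

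In CAMA-1, SREBF1 had 38.88, 45.5 and 35.4 CPM with DMSO, 51.5, 61.3 and 59.4 with abemaciclib, and 41.1, 41.4 and 46.1 with palbociclib. All 3 abemaciclib libraries lay above every DMSO library, and the palbociclib libraries overlapped them. SREBF1 rose 1.44-fold with abemaciclib (log2 fold change 0.53 ± 0.13 SE, adjusted p = 0.00117). With palbociclib the log2 fold change was 0.11 ± 0.13 (adjusted p = 0.566, 95% interval -0.16 to 0.38). In ZR-75-1 it had 65.5, 56.3 and 69.1 CPM with DMSO, 162, 154 and 168 with abemaciclib, and 85.6, 93.9 and 93.9 with palbociclib. The 3 groups did not overlap in this line. The rise was 2.54-fold with abemaciclib (log2 1.34 ± 0.10, adjusted p = 5.09e-17) and 1.43-fold with palbociclib (log2 0.52 ± 0.10, adjusted p = 7.45e-05). The 3′ end of SREBF1 lies in an exon of RAI1, which runs on the opposite strand and shares 556 exonic bases with it, and the counting is not stated to use strand, so reads of the 2 genes may be mixed. RAI1 had 26.7% as many counts as SREBF1 over all libraries. Its log2 fold change was 0.61, 0.32, 0.38 and 0.02 in the 4 comparisons, called only for abemaciclib in CAMA-1 (adjusted p = 0.0147), and its part in the SREBF1 values was not tested.

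ACLY, which makes cytosolic acetyl-CoA (chr17:41866917-41930542, minus strand), had small differences. With DMSO in CAMA-1 it had 186, 180 and 196 CPM, with abemaciclib 200, 203 and 214, and with palbociclib 235, 209 and 226. Both drug groups lay above the DMSO libraries, and the palbociclib difference was called (1.19-fold, log2 0.25 ± 0.08, adjusted p = 0.00854). The abemaciclib difference was not called (log2 0.13 ± 0.08, adjusted p = 0.19). In ZR-75-1 ACLY had 229, 222 and 211 CPM with DMSO, 265, 257 and 258 with abemaciclib, and 235, 261 and 243 with palbociclib. The drug libraries were again the higher ones, with abemaciclib called (1.18-fold, log2 0.24 ± 0.08, adjusted p = 0.0104) and palbociclib not (log2 0.16 ± 0.08, adjusted p = 0.117). Both calls of ACLY rested on single libraries: the adjusted p was 0.0669 without palbociclib replicate 1 in CAMA-1 and 0.0563 without DMSO replicate 3 in ZR-75-1.

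ACACA, the acetyl-CoA carboxylase that commits carbon to fatty acids (chr17:37084992-37406836, minus strand), changed in CAMA-1. Its libraries there had 41.2, 31.2 and 42.5 CPM with DMSO, 54.7, 51.1 and 52.4 with abemaciclib, and 57.4, 57.0 and 60.0 with palbociclib. The 3 groups did not overlap. ACACA rose 1.37-fold with abemaciclib (log2 0.45 ± 0.13, adjusted p = 0.00455) and 1.504-fold with palbociclib (log2 0.59 ± 0.13, adjusted p = 0.000237). DMSO replicate 2 was the lowest library, and without it the abemaciclib difference was 0.33 on the log2 scale with an adjusted p of 0.0534. In ZR-75-1 the libraries ranged from 42.3 to 57.2 CPM with DMSO, 45.9 to 56.0 with abemaciclib and 45.8 to 55.9 with palbociclib, and the groups overlapped. The log2 fold changes were 0.01 (95% interval -0.25 to 0.28) and 0.02 (-0.24 to 0.28).

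FASN, the multienzyme that assembles palmitate (chr17:82078338-82098294, minus strand), rose with both drugs in both lines. In CAMA-1 it had 313, 291 and 340.0 CPM with DMSO, 434, 447 and 422 with abemaciclib, and 596, 602 and 635 with palbociclib. The ZR-75-1 libraries had 1049.9, 1171 and 1104 CPM with DMSO, 1806, 1840.0 and 1644 with abemaciclib, and 1326, 1391 and 1291 with palbociclib. No 2 groups of a line overlapped, but their order differed: palbociclib was highest in CAMA-1 and abemaciclib in ZR-75-1. In CAMA-1 the rise was 1.38-fold with abemaciclib (log2 0.46 ± 0.07, adjusted p = 4.65e-07) and 1.94-fold with palbociclib (log2 0.95 ± 0.07, adjusted p = 2.33e-15). In ZR-75-1 it was 1.59-fold with abemaciclib (log2 0.67 ± 0.07, adjusted p = 1.28e-12) and 1.21-fold with palbociclib (log2 0.27 ± 0.07, adjusted p = 0.00112). At 831 to 5580 counts a library, FASN was among the deeply counted members.

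SCD, the stearoyl-CoA desaturase that makes monounsaturated chains, lies at chr10:100347233-100364826 on the plus strand. Its upstream 250 bases (GRCh38.p14, chr10:100346983-100347232, plus strand) are shown because the order of the drugs for this gene differed between the lines, with GC boxes and CCAAT boxes (CCAAT on either strand) in capitals.
SCD: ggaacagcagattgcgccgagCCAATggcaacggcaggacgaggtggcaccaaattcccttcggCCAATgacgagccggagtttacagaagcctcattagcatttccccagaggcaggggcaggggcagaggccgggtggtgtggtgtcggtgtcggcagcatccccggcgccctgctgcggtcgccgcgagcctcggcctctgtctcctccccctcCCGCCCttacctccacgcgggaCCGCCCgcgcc

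In CAMA-1, SCD had 235, 243 and 272 CPM with DMSO, 235, 229 and 234 with abemaciclib, and 339, 272 and 353 with palbociclib. Palbociclib replicate 2 lay just below the highest DMSO library, and the abemaciclib libraries overlapped the DMSO libraries. SCD rose 1.28-fold with palbociclib (log2 0.36 ± 0.08, adjusted p = 0.00039), and its log2 fold change with abemaciclib was -0.11 ± 0.08 (adjusted p = 0.329). In ZR-75-1 it had 1721, 1692 and 1596 CPM with DMSO, 2665, 2661 and 2802 with abemaciclib, and 1433, 1574 and 1632 with palbociclib. Here the abemaciclib libraries were all above the others. SCD rose 1.62-fold with abemaciclib (log2 0.70 ± 0.06, adjusted p = 2.09e-13), and the log2 fold change with palbociclib was -0.11 ± 0.06 (adjusted p = 0.208, 95% interval -0.24 to 0.02). With library totals alone as the scaling, the abemaciclib difference in CAMA-1 was -0.23 and called lower (adjusted p = 0.0278). The mitochondrial share, which is part of those totals, was 15.7% with DMSO and 24.8% with abemaciclib in the means of the same libraries. With mitochondrial genes left out before TMM scaling, the number of members called was 4 with abemaciclib and 5 with palbociclib in CAMA-1, as with them.

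The elongases did not move together. ELOVL1, which lengthens saturated and monounsaturated chains to very long ones (chr1:43363398-43368074, minus strand), had 13.0 to 22.2 CPM in the 9 libraries of CAMA-1 and 19.5 to 35.8 in those of ZR-75-1. The groups overlapped in all 4 comparisons with DMSO and none was called, with log2 fold changes of 0.10, 0.13, 0.23 and -0.14 and intervals that reached from -0.50 to 0.58. ELOVL1 had 30 to 119 counts a library. Its replicates varied, with an SD of 24.8% of the mean with DMSO in CAMA-1 and 26.9% in ZR-75-1. A change of a size within those intervals cannot be told from none here. CDC20, a mitotic gene on the opposite strand 194 bases beyond the 3′ end of ELOVL1, fell in the same 4 comparisons (log2 -1.99, -1.87, -1.45 and -0.995), and its part in the ELOVL1 values was not tested.

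ELOVL5 lengthens polyunsaturated chains (chr6:53267398-53349179, minus strand). In ZR-75-1 it had 59.4, 53.6 and 66.1 CPM with DMSO, 80.6, 78.9 and 74.4 with abemaciclib, and 81.8, 75.7 and 87.5 with palbociclib. Both drug groups lay above the DMSO libraries. The rise was 1.31-fold with abemaciclib (log2 0.39 ± 0.11, adjusted p = 0.00462) and 1.37-fold with palbociclib (log2 0.46 ± 0.11, adjusted p = 0.00104). In CAMA-1 its libraries had 162 to 176 CPM with DMSO, 157 to 166 with abemaciclib and 180 to 200 with palbociclib, and neither drug passed the test (log2 -0.08, adjusted p = 0.48, and 0.16, adjusted p = 0.105).

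ELOVL6, which lengthens palmitate to stearate (chr4:110045846-110199199, minus strand), was near the limit of counting in CAMA-1. The libraries of that line had 0 to 6 counts each, and 2 palbociclib libraries had 0, which allows up to 0.723 and 1.03 CPM (3 counts, counting error only). In ZR-75-1 it had 29.2, 38.5 and 33.5 CPM with DMSO, 26.9, 25.7 and 22.0 with abemaciclib, and 21.7, 22.1 and 17.3 with palbociclib. All drug libraries lay below all DMSO libraries. ELOVL6 fell 1.66-fold with palbociclib (log2 -0.73 ± 0.17, adjusted p = 0.000795). The fall with abemaciclib was called by a narrow margin (1.36-fold, log2 -0.44 ± 0.17, adjusted p = 0.0394). It was not called by DESeq2 (adjusted p = 0.0873), without the filter on low counts (0.0845), with all 18 libraries in 1 fit (0.123), or without DMSO replicate 2 (0.205), DMSO replicate 3 (0.0707), abemaciclib replicate 2 (0.0733) or abemaciclib replicate 3 (0.158).

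FADS1 and FADS2 encode the desaturases of polyunsaturated fatty acids and are neighbours on chromosome 11 (chr11:61799627-61829318, minus strand, and chr11:61792980-61867354, plus strand). The RefSeq start site of FADS2 used here lies within FADS1 on the other strand, 800 bases downstream of the RefSeq start site of FADS1. The 250 bases before the FADS1 start (GRCh38.p14, chr11:61817004-61817253, minus strand) are shown because this gene fell in every comparison with DMSO. Capitals mark GC boxes.
FADS1: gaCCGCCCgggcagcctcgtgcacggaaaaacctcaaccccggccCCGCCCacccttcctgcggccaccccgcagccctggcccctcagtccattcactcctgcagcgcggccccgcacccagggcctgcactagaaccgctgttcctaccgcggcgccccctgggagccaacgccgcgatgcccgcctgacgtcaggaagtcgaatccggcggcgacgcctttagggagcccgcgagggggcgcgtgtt

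FADS1 had 39.9, 52.5 and 37.8 CPM with DMSO in CAMA-1, 10.4, 11.5 and 10.2 with abemaciclib, and 22.7, 26.6 and 26.7 with palbociclib. The ZR-75-1 libraries had 92.4, 107 and 90.4 CPM with DMSO, 21.7, 34.5 and 32.0 with abemaciclib, and 54.1, 57.8 and 58.0 with palbociclib. The 3 groups stood apart in both lines, in the order DMSO, palbociclib, abemaciclib. FADS1 fell 4.05-fold with abemaciclib in CAMA-1 (log2 -2.02 ± 0.19, adjusted p = 4.36e-12) and 3.30-fold in ZR-75-1 (log2 -1.72 ± 0.13, adjusted p = 2.5e-16). With palbociclib it fell 1.71-fold in CAMA-1 (log2 -0.77 ± 0.16, adjusted p = 0.000127) and 1.71-fold in ZR-75-1 (log2 -0.77 ± 0.12, adjusted p = 6.11e-07). FADS2 had 66.1, 71.8 and 67.4 CPM with DMSO in CAMA-1, 60.1, 55.5 and 66.7 with abemaciclib, and 75.7, 77.9 and 65.5 with palbociclib. The ZR-75-1 libraries had 148 to 179 CPM with DMSO, 152 to 165 with abemaciclib and 155 to 166 with palbociclib. The FADS2 groups overlapped in every comparison with DMSO, with log2 fold changes of -0.16, 0.10, -0.05 and 0.00 and 95% intervals from -0.39 to 0.32 at their widest. The long annotation of FADS2 covers FADS1 on the opposite strand and shares 490 exonic bases with it, so reads there are uncertain. FEN1, a gene of DNA replication on the opposite strand, lies 2388 bases beyond the 3′ end of FADS1. FEN1 also overlaps the long annotation of FADS2 on the same strand, shares 49 exonic bases with it and had 48.1% as many counts as FADS2. It fell in all 4 comparisons (log2 -1.92, -1.43, -0.93 and -0.34), and its part in the FADS1 and FADS2 values was not tested.

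**Figure D2:**
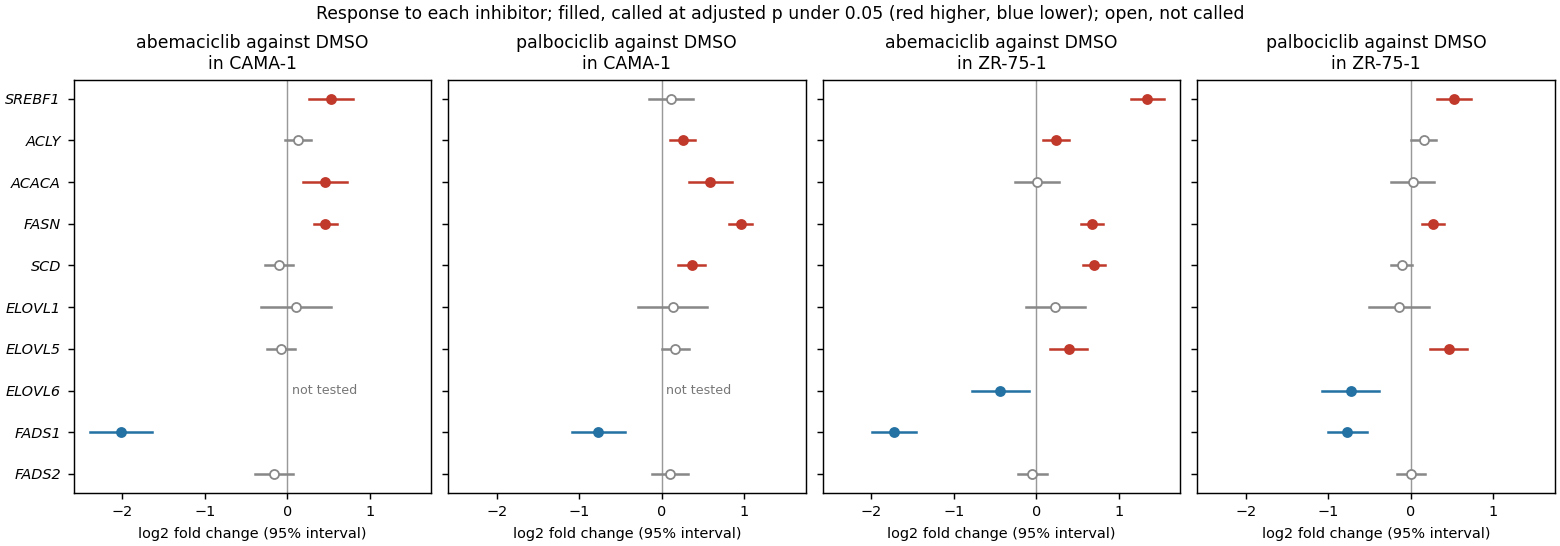
Log2 fold changes of the 10 genes (horizontal axis) in the 4 comparisons with DMSO; circles are edgeR estimates and lines their 95% intervals, filled where called. FADS1 lies furthest to the left in each panel, at -2.02 with abemaciclib in CAMA-1, and SREBF1 furthest to the right with abemaciclib in ZR-75-1, at 1.34.

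The promoters were searched on both strands for short motifs over 250 bases before to 50 after the start. RefSeq entries matched 9 of the 10 members, all but FASN. The entry of FADS2 starts within FADS1 and may not be its main start, and it held none of the motifs below. The GC box GGGCGG was found in 7 of 9 and in 45.0% of all 35116 promoters of that length, and CCAAT in 4 of 9 against 34.6%. The core of the sterol response element was searched only as the exact letters CACCCCAC, found in 0 of 9 against 2.79%. Other forms of the element were not searched for. With so low a share over all promoters, 0 of 9 does not show that the members lack it. The E-box CACGTG was found in ELOVL5 alone against 7.26%, and an E2F site (TTTCCCGC, TTTCGCGC, TTTGCCGC or TTTGGCGC) in ACACA alone against 3.31%. These are matches of letters in a fixed window, and 1 GC box and 1 CCAAT box of ELOVL1 share bases.

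The drugs were next compared with each other at the same dose and time. In CAMA-1, 0 of 9 members were higher with abemaciclib than with palbociclib and 3 were lower, where 0.796% of all tested genes were higher and 1.53% lower. The 3 were FASN (log2 -0.49 ± 0.07, adjusted p = 2.06e-06), SCD (-0.47 ± 0.08, adjusted p = 0.000241) and FADS1 (-1.25 ± 0.20, adjusted p = 4.14e-05). SREBF1 had the opposite sign and was not called (0.42 ± 0.13, adjusted p = 0.0789), although it was called without DMSO replicate 3 (adjusted p = 0.0468) and with all 18 libraries in 1 fit (adjusted p = 0.0423). In ZR-75-1, 3 of 10 members were higher with abemaciclib and 1 was lower, against 5.23% and 7.94% of all tested genes. The higher ones were SREBF1 (0.83 ± 0.09, adjusted p = 8.84e-10), FASN (0.40 ± 0.07, adjusted p = 4.97e-06) and SCD (0.81 ± 0.06, adjusted p = 6.17e-15), and FADS1 was again lower (-0.95 ± 0.14, adjusted p = 5.42e-07). For the other members the 95% intervals of the difference between the drugs reached from -0.49 to 0.39 in CAMA-1 and from -0.28 to 0.73 in ZR-75-1. Those of ELOVL5 (-0.40 to -0.08) and FADS2 (-0.49 to -0.04) in CAMA-1 left out 0, as did that of ELOVL1 in ZR-75-1 (0.01 to 0.73). None of these was called (adjusted p = 0.121, 0.277 and 0.184).

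The reversed order of FASN and SCD was tested as a difference between the lines, a comparison added after the values had been seen. The abemaciclib minus palbociclib difference was larger in ZR-75-1 than in CAMA-1 by 0.90 ± 0.09 on the log2 scale for FASN (adjusted p = 3.71e-11) and by 1.28 ± 0.10 for SCD (adjusted p = 1.97e-15). These were 2 of 10 members called higher and 0 lower, against 1.03% and 1.77% of 11987 genes. For FADS1 this value was 0.30 ± 0.25 (adjusted p = 0.663, 95% interval -0.20 to 0.79). Of the 8 luminal markers, 0 were higher and 1 was lower with abemaciclib than with palbociclib in CAMA-1, against 0.796% and 1.53% of all tested genes. In ZR-75-1, 6 of the 8 were higher and 0 lower, against 5.23% and 7.94%. In the difference between the lines 4 of the 8, among them KRT8 (0.66) and KRT18 (0.51), were called higher and 0 lower, against 1.03% and 1.77%. The proliferation markers MKI67, TOP2A and CCNA2 had a median abemaciclib minus palbociclib difference of -0.87 in CAMA-1 and -3.14 in ZR-75-1. All 3 were called lower in both lines and in the difference between the lines (median -2.38). The part of the luminal and proliferation markers in the FASN and SCD values was not tested.

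**Figure D3:**
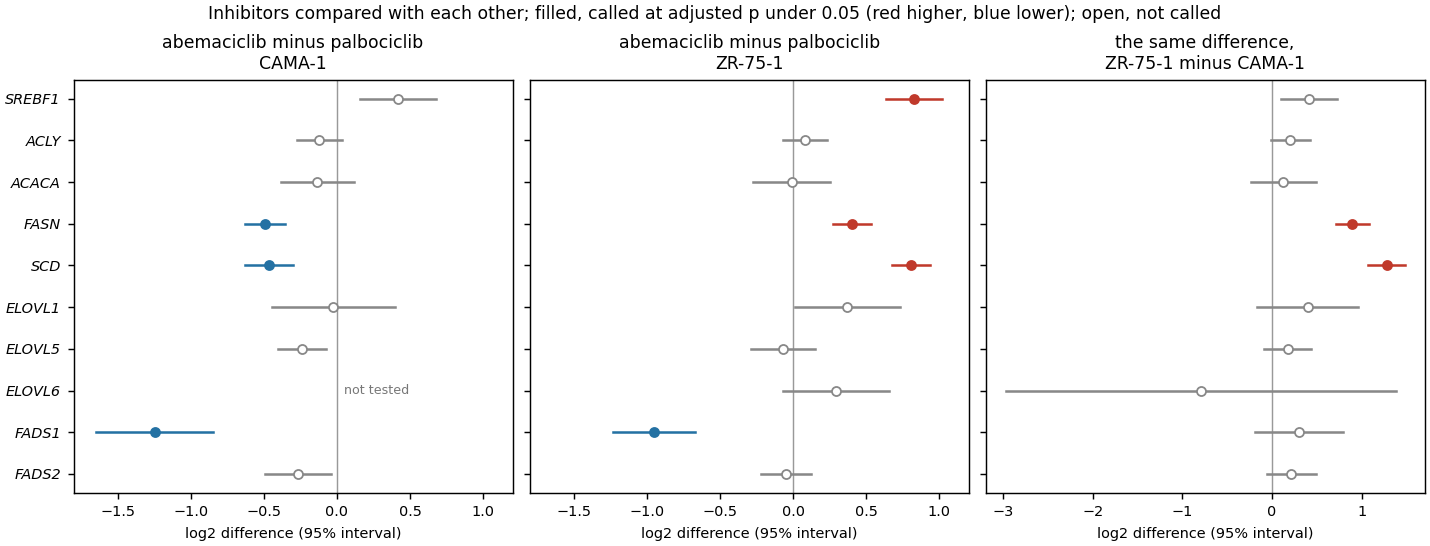
Abemaciclib minus palbociclib on the log2 scale (horizontal axes; the third has a wider range) in CAMA-1, in ZR-75-1, and the difference between the lines; lines are 95% intervals and filled circles are called. FASN and SCD lie left of 0 in CAMA-1 (-0.49 and -0.47) and right of 0 in ZR-75-1 (0.40 and 0.81), and FADS1 lies left of 0 in both.

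The response to each drug was then compared between the lines in 1 fit of 18 libraries. The abemaciclib response of 3 of 10 members was higher in ZR-75-1 and that of 0 was lower, against 8.19% and 10.0% of 11987 genes. SREBF1 exceeded its CAMA-1 response by 0.79 ± 0.16 on the log2 scale (adjusted p = 0.000146), SCD by 0.78 ± 0.10 (adjusted p = 1.42e-08) and ELOVL5 by 0.44 ± 0.14 (adjusted p = 0.014). The palbociclib response of 0 members was higher in ZR-75-1 and that of 3 was lower, against 10.0% and 10.3%. With library totals alone, 65.9% and 67.6% of all called genes had the higher response in ZR-75-1, in place of 44.9% and 49.3%. The 3 members were ACACA (-0.59 ± 0.18, adjusted p = 0.0149), FASN (-0.71 ± 0.09, adjusted p = 1.32e-08) and SCD (-0.50 ± 0.10, adjusted p = 0.000119). The ACACA difference was not called without DMSO replicate 2 of CAMA-1 (adjusted p = 0.101) or of ZR-75-1 (adjusted p = 0.11). With library totals alone it was not called either (adjusted p = 0.074), whereas the palbociclib responses of SREBF1 (0.52, adjusted p = 0.02) and ELOVL5 (0.40, adjusted p = 0.0282) were then called higher in ZR-75-1. SREBF1 was also called there without DMSO replicate 3 of CAMA-1 (adjusted p = 0.0346). For the abemaciclib response, FASN was called higher with library totals alone (0.33, adjusted p = 0.0112) and without DMSO replicate 2 of CAMA-1 (adjusted p = 0.028) or of ZR-75-1 (adjusted p = 0.034). ACACA was called lower without DMSO replicate 3 of ZR-75-1 (-0.57, adjusted p = 0.0352). The FADS1 responses differed between the lines by 0.27 ± 0.24 with abemaciclib and -0.03 ± 0.20 with palbociclib, and neither difference was called (adjusted p = 0.483 and 0.953).

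With DMSO alone, 9 of 10 members were higher in ZR-75-1 than in CAMA-1 and 1 was lower, against 31.5% and 29.8% of all tested genes. The 9 include ELOVL6, which passed the filter on low counts only through ZR-75-1 and so could only be called higher there. SCD was 7.07-fold higher (log2 2.82 ± 0.07, adjusted p = 2.87e-41) and FASN 3.73-fold (log2 1.90 ± 0.07, adjusted p = 4.2e-34). ELOVL6 was higher by 5.42 ± 0.38 on the log2 scale (95% interval 4.67 to 6.17), from 1 to 6 counts a library in CAMA-1 to 91 to 128 in ZR-75-1. FADS2 and FADS1 were 2.51-fold and 2.38-fold higher, and SREBF1 1.70-fold. ACLY (1.25-fold), ACACA (1.37-fold) and ELOVL1 (1.63-fold) had the smallest differences. ELOVL5 was the exception, 2.68-fold lower in ZR-75-1 (log2 -1.42 ± 0.10, adjusted p = 1.73e-20). The ACACA call was lost without DMSO replicate 2 of CAMA-1 (adjusted p = 0.0911) or of ZR-75-1 (0.0976), and the ELOVL1 call without DMSO replicate 2 of ZR-75-1 (0.11).

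Across the 9 libraries of ZR-75-1, SREBF1 varied with FASN (Pearson's r = 0.95 on log2 CPM) and SCD (r = 0.85) and against FADS1 (r = -0.97). Across those of CAMA-1, the r of SREBF1 with FASN was 0.13 and with SCD -0.42, while that with FADS1 was -0.80. In CAMA-1 FASN varied with ACACA (r = 0.90) and ACLY (r = 0.89). These values are descriptions, since the points share the treatment groups. Over all 18 libraries, with each line centred on its own mean, the genes most like SREBF1 among 10871 were RPL15, GDE1, LAMP1, LAMP2 and SERINC2 (r = 0.93 to 0.94), with SCD at rank 1351 and FASN at rank 1536. The genes most like FASN were MUC1, GFM2, ARHGAP18, DSCAM-AS1 and HES1 (r = 0.91 to 0.95), and ACLY followed at rank 18 (r = 0.88).

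Other genes of lipid metabolism were read from 6 lists around the pathway. Among 18 genes of SREBP regulation, 16 were tested within each line, and 6, 5, 3 and 3 were higher and 1, 1, 3 and 4 lower. These counts stand in the order abemaciclib then palbociclib, first for CAMA-1, and the list medians were 0.18, 0.15, 0.13 and 0.07 on the log2 scale. Of all tested genes, 20.3%, 18.4%, 17.9% and 14.5% were called higher and 20.1%, 18.7%, 18.3% and 13.4% lower in that order. These shares also stand against the counts of the other 5 lists. SCAP, the escort of the SREBP precursors, rose in all 4 comparisons, from 65.9 ± 2.71 CPM with DMSO in CAMA-1 to 93.0 ± 5.99 and 91.5 ± 8.32, and from 58.3 ± 9.96 in ZR-75-1 to 109 ± 14.6 and 108 ± 4.96 (SD, n = 3). MLXIP, a glucose-sensing transcription factor, rose by 0.57, 0.46, 0.95 and 1.03 on the log2 scale. The largest fall in ZR-75-1 with abemaciclib was that of PRKAA2, a catalytic subunit of AMP-activated kinase (log2 -1.47 ± 0.35, adjusted p = 0.000515).

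Of 12 genes that supply carbon and NADPH, 11 were tested in CAMA-1 and 12 in ZR-75-1. In the same order, 1, 4, 5 and 4 were higher and 2, 4, 1 and 1 lower (medians -0.08, -0.06, 0.23 and 0.26). TKT, an enzyme of the pentose phosphate pathway, fell in each comparison (log2 -0.79, -0.52, -0.31 and -0.30). Of 20 other chain-building enzymes 15 were tested, and 4, 5, 3 and 3 were higher and 3, 2, 0 and 1 lower (medians 0.27, 0.16, 0.04 and 0.19). HACD3, a dehydratase of the elongation cycle beside others of its family, rose in all 4 comparisons (log2 0.60, 0.60, 0.79 and 0.74). So did CYB5A, a cytochrome that passes electrons to desaturases (0.30, 0.38, 0.89 and 0.76). ELOVL2, an elongase of polyunsaturated chains, fell in CAMA-1 with abemaciclib (log2 -0.93 ± 0.12) and palbociclib (-0.75 ± 0.12). ELOVL3, an elongase of saturated and monounsaturated chains, was higher with palbociclib in CAMA-1 (log2 2.50 ± 0.67), from 0 to 5 counts a library to 10 to 24. In ZR-75-1 it went from 4 counts a library to 27 to 32 with abemaciclib (3.00 ± 0.43) and 29 to 32 with palbociclib (2.81 ± 0.43). In both lines it passed the filter on low counts only through drug libraries, so these calls could only be rises. With abemaciclib in CAMA-1 it was not called (1.43 ± 0.77).

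Of 21 genes of fatty acid activation and glycerolipid synthesis, 17 were tested in CAMA-1 and 18 in ZR-75-1. Of these, 2, 4, 6 and 5 were higher and 2, 2, 3 and 1 lower (medians 0.09, 0.12, -0.03 and 0.16). PNPLA3, a lipid droplet hydrolase, rose in all 4 comparisons and went from 25.7 ± 4.31 CPM to 111 ± 7.99 and 85.9 ± 5.14 in ZR-75-1. PLIN2, the coat protein of lipid droplets, fell in all 4 (log2 -2.68, -2.29, -2.53 and -1.12), from 36.4 ± 2.29 CPM to 5.77 ± 1.26 and 7.37 ± 1.15 in CAMA-1. Of 24 genes of fatty acid oxidation, 20 were tested in CAMA-1 and 19 in ZR-75-1, and 6, 4, 7 and 5 were higher and 5, 6, 5 and 2 lower (medians -0.01, -0.11, 0.10 and 0.22). CPT1A, which admits fatty acids to the mitochondrion, fell in each (log2 -0.60, -0.37, -1.33 and -0.69). Of 22 genes of cholesterol synthesis and uptake, 19 were tested in CAMA-1 and 20 in ZR-75-1, and 7, 11, 4 and 2 were higher and 4, 1, 6 and 6 lower. TM7SF2 rose and EBP fell in all 4 comparisons, and both encode sterol-modifying enzymes. The list medians for cholesterol genes were 0.18, 0.47, 0.05 and -0.10 on the log2 scale, beside medians of all genes between -0.01 and 0.01.

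**Figure D4:**
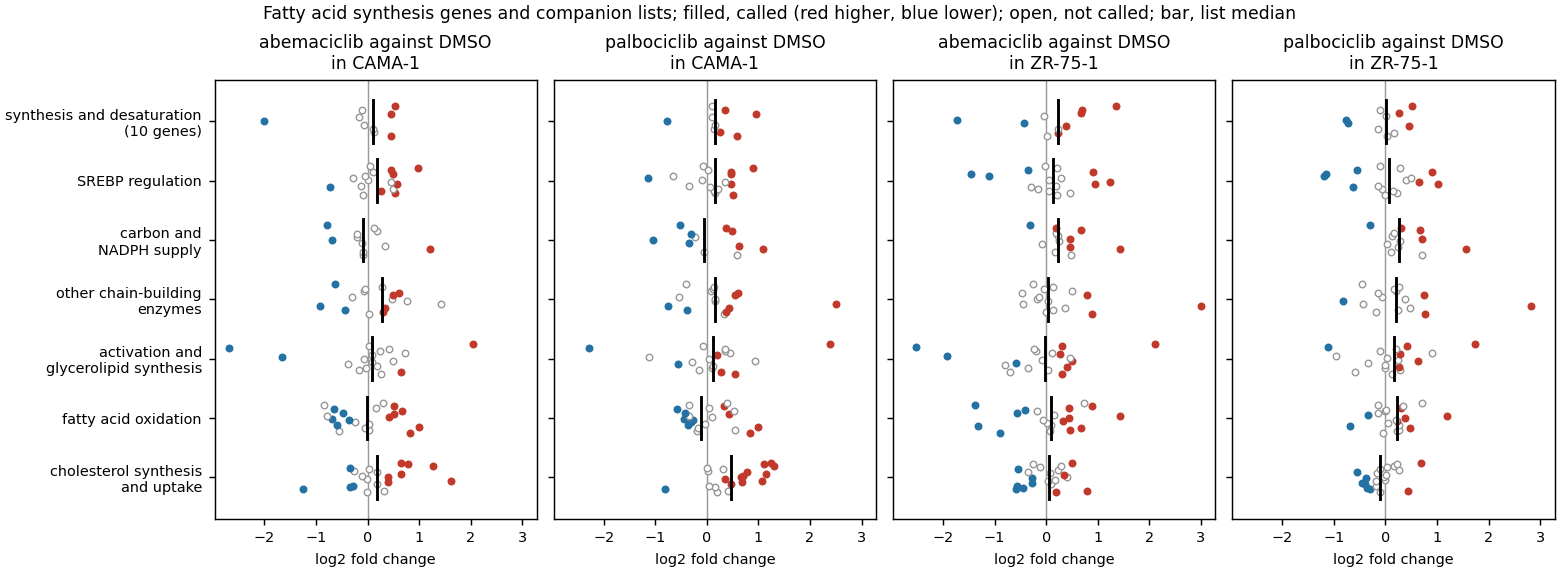
Log2 fold changes (horizontal axis) of single tested genes by list in the 4 comparisons with DMSO; filled circles are called, open ones are not, and black bars are list medians. The point furthest to the left among the 10 synthesis genes is FADS1, and PLIN2 (-2.68 with abemaciclib in CAMA-1) is the leftmost of the glycerolipid list.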

How the data were processed

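RNA of CAMA-1 and ZR-75-1 cells was sequenced from the 3′ end (Lexogen QuantSeq kit) in 18 libraries. The deposited values are raw read counts per gene, which the authors made by trimming with BBDuk, aligning with STAR 2.7.5b to hg38 and counting with featureCounts 2.0.1 on GENCODE 35. Strand setting, multiple alignments and molecular identifiers of the counting are not given in the sources used here, and the labels and methods name different strands for the kit. Genes with copies or with overlaps on the other strand are uncertain for that reason, and floors cover counting error only. Positions come from GENCODE 44 and sequences from RefSeq (GRCh38.p14).

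Each line was fitted in edgeR 4.0.16 (R 4.3.3) with filterByExpr, TMM scaling and the quasi-likelihood F test over its 9 libraries, and the lines were compared in 1 fit of 18. P-values were adjusted by the Benjamini-Hochberg method within a comparison. Fold changes are edgeR estimates. Alternatives were RLE, upper-quartile and total scaling, other filters, DESeq2 1.42.0, limma-voom (limma 3.58.1), mitochondrial genes left out, all 18 libraries in 1 fit, robust dispersion, a replicate block and each library left out. The fit was tested on simulated data. The study's methods used DESeq2. The members and lists were chosen with earlier results of these data known, and neighbouring genes after seeing the values. All 10 members are named; companion genes are those called alike in all 4 comparisons with DMSO or with the largest called change, at a mean of at least 10 counts. Some companion genes that meet this rule are not reported here. Replicates of a group were distinct libraries (r = 0.984 to 0.989, chi-square per degree of freedom 1.83 to 5.18).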

Additional observations from a re-analysis of the deposited data

Results flagged for a closer look

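In 8 cases the difference between lines itself passed the test (edgeR, adjusted p under 0.05), and its value is ZR-75-1 minus CAMA-1 on the log2 scale. The abemaciclib response exceeded that of CAMA-1 by 0.79 for SREBF1, 0.78 for SCD and 0.44 for ELOVL5. All 3 abemaciclib libraries of ZR-75-1 lay above its DMSO libraries for these genes, whereas in CAMA-1 the SCD and ELOVL5 groups overlapped. For the palbociclib response the values were -0.59 for ACACA, -0.71 for FASN and -0.50 for SCD. For the abemaciclib minus palbociclib difference they were 0.90 for FASN and 1.28 for SCD, and for both genes the sign of that difference was opposite in the 2 lines. That comparison was added after the values had been seen. In the same fit it equals the abemaciclib response difference minus the palbociclib one, so its 2 cases are not separate from the others. The mitochondrial share of counts was higher in all drug libraries of CAMA-1 than in its DMSO libraries, and its part in these differences was not tested beyond the fit without mitochondrial genes, which called the same number of members in each of these comparisons (3, 3 and 2).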

How the results depend on the processing

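No called member changed direction under any alternative run, and in settings other than a left-out library 453 of their values stayed called and 7 did not. The number of members called with abemaciclib in CAMA-1 moved from 4 to 7 with library totals alone, since SCD, ELOVL5 and FADS2 were then called lower; the median of all genes shifted to -0.12 in the same fit. With each library left out in turn, it ranged from 3 to 4 there, and the other counts ranged from 4 to 5 (palbociclib in CAMA-1), 5 to 7 (abemaciclib in ZR-75-1), 3 to 4 (between the drugs in CAMA-1), 8 to 10 (DMSO level), 3 to 4 (abemaciclib response between lines) and 2 to 4 (palbociclib response between lines), while those of the remaining comparisons did not move. The calls of ELOVL6, ACLY, ACACA and ELOVL1 that were lost are given beside those results; library totals alone also ended that of ACLY with palbociclib in CAMA-1 (log2 0.15), of ACLY and ACACA at the DMSO level (0.16 and 0.30) and of ACACA in the palbociclib response (-0.47), and calls gained between the lines stand beside those results; the cause was not tested. Replicate numbers did not pair the libraries (same-number correlations -0.078 to 0.012), and a fit with the replicate block left every count of called members as it was (7 with abemaciclib in ZR-75-1, for example).

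Signs that turned were all of values that were not called. With library totals alone they were -0.024 for ELOVL1 with abemaciclib and -0.0057 for FADS2 with palbociclib in CAMA-1, and 0.0078 for ACLY, 0.098 for FADS1 and 0.0072 for FADS2 in the palbociclib response between lines, where FADS1 was 0.016 without mitochondrial genes. FADS2 with palbociclib in ZR-75-1 was -0.0034 with RLE scaling, -0.017 with upper-quartile scaling, -0.0029 with at least 10 counts in 3 libraries and -0.0034 with DESeq2. ACACA between the drugs in ZR-75-1 was 0.0017, 0.019 and 8.8e-05 in the first 3 of these. With 1 library left out, ELOVL1 ranged from -0.062 to 0.27 with abemaciclib, from -0.037 to 0.27 with palbociclib and from -0.16 to 0.14 between the drugs in CAMA-1, and from -0.28 to 0.10 with palbociclib in ZR-75-1. In ZR-75-1 ACACA ranged from -0.086 to 0.13 with abemaciclib, from -0.084 to 0.14 with palbociclib and from -0.099 to 0.072 between the drugs, and FADS2 from -0.11 to 0.029 and from -0.063 to 0.071 with the 2 drugs. Between the lines the abemaciclib response ranged from -0.035 to 0.40 for ELOVL1 and from -1.51 to 0.41 for ELOVL6, and the palbociclib response from -0.74 to 3.67 for ELOVL6 and from -0.14 to 0.096 for FADS1.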
